A study of Mus musculus with 48 samples.

Results

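The genes described here make, move and sense adenosine in the brain of sleep-deprived mice. They are 10 genes: the receptors Adora1, Adora2a and Adora2b, the enzymes Ada, Adk and Nt5e, and the transporters Slc29a1, Slc29a2, Slc29a3 and Slc29a4. Their members were all probes whose RefSeq accession belongs to one of these genes, which gave 15 of the 41174 probes on the array, or 10 of the 18883 genes with a symbol. Of the 15 probes, 14 passed the filter on dim signals, so that every gene had at least 1 tested probe. A second Nt5e probe, A_51_P156740, was well above background on 0 cortex arrays and on 1 to 3 of 8 hypothalamus arrays per genotype and was not tested.

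Adenosine builds up outside cells while an animal is awake and is one of the best known sleep-promoting substances of the brain. It is formed outside the cell from AMP by the membrane-bound nucleotidase encoded by Nt5e and inside the cell from AMP and S-adenosylhomocysteine, crosses membranes through the equilibrative nucleoside transporters of the Slc29 family, and is removed by phosphorylation (Adk) or deamination (Ada). The Adora1 receptor lowers cyclic AMP and quietens neurons, whereas Adora2a and Adora2b raise cyclic AMP. Caffeine promotes wakefulness by blocking adenosine receptors.

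Frontal cortex and hypothalamus were taken from 24 adult C57BL/6 mice at the end of 12 h of sleep deprivation (SD), 8 of each genotype. The knock-in (KI) genotypes, Per3 5/5 and Per3 4/4, have the human PER3 exon that holds the repeats in place of the matching mouse exon. The exon is in the version with 5 or with 4 repeats, and WT mice carry the mouse gene without the insert. Both KI lines came from gene-targeted cells with Cre bred out afterwards. The inserted exon was human while the rest of Per3 was mouse, and all 3 genotypes were sleep deprived together in mixed groups. No mice left to sleep were measured, so that every level below is a level after SD and no response to SD can be read from it. The sex of these mice was not given in the sources used here. Each of the 48 tissue samples was hybridised to 1 one-colour whole-genome array. A level is the log2 signal of a probe minus the log2 of the 75th percentile of its array, so 0 is the 75th percentile and a difference of 1 is a 2-fold difference. Levels of different probes cannot be set against each other, because probes differ in how they bind. Genotypes were compared within each tissue by a linear model (limma) with 8 mice per genotype, and a probe was called at a Benjamini-Hochberg adjusted p under 0.05 over all probes tested.

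The arrays were alike in most measures of quality but not in brightness. Replicates of a group correlated at 0.968 to 0.989, between 27851 and 32963 probes per array were well above background, and no spot was saturated. The 75th percentile, in intensity units, ran higher in WT, with overlap. In cortex it was 973 to 1463 in WT, 727 to 1148 in Per3 5/5 and 324 to 1102 in Per3 4/4. In hypothalamus it was 1206 to 1884, 917 to 1217 and 307 to 1575 in that order. The part of brightness in the calls was not tested. The tissue labels fitted their markers: the summed level (log2 of the summed signal relative to the 75th percentile) of 8 hypothalamic markers (such as Hcrt, Pmch and Agrp) was 7.76 to 8.75 in hypothalamus and -1.45 to 0.27 in cortex, and that of the cortical markers (such as Tbr1 and Neurod6) was 5.3 to 5.83 in cortex and 0.53 to 2.48 in hypothalamus. The arrays were scanned on 3 days that did not hold the genotypes evenly. Of the Per3 5/5 mice, 4 were scanned on day 1 and 4 on day 3. The Per3 4/4 mice were spread as 4, 3 and 1 over days 1, 2 and 3, and the WT mice as 5 and 3 over days 2 and 3. Day and genotype were therefore partly mixed, and each call of an adenosine gene between a KI genotype and WT is followed by its value with the scan day as a block. Per3 5/5 and WT mice shared day 3 alone, so only that day compares them directly in that fit. With the slide as a fixed block none of the 18 calls between a KI genotype and WT remained. Per3 5/5 and WT mice shared no slide, and Per3 4/4 and WT mice shared only slides 7 and 9. That fit could therefore say little about differences between KI and WT.

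The promoters of Adora1, Slc29a2 and Slc29a4 are shown because these genes had the same probe called higher in both KI genotypes than in WT in at least 1 tissue. They are the 250 bases before an annotated start in RefSeq, on GRCm38.p6, 5′ to 3′ on the gene's strand, with GGGCGG on either strand (the GC box bound by Sp-family factors, read as CCGCCC on the other strand; overlapping matches were counted) in capitals. Adora1 has 2 starts, at chr1:134235458-134235707 and chr1:134234857-134235106 (both on the minus strand), Slc29a2 has its promoter at chr19:5023756-5024005 and Slc29a4 at chr5:142701851-142702100 (both on the plus strand).
Adora1, upstream start: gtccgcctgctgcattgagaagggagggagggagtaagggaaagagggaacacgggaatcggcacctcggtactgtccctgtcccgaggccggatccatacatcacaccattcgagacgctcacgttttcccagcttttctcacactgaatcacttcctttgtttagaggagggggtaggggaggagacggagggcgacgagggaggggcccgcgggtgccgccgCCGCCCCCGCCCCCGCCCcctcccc
Adora1, downstream start: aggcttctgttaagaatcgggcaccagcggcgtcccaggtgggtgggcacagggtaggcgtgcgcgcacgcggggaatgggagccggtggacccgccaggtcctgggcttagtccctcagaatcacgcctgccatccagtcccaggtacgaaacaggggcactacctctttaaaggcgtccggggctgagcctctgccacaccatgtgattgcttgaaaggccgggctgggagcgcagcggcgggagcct
Slc29a2: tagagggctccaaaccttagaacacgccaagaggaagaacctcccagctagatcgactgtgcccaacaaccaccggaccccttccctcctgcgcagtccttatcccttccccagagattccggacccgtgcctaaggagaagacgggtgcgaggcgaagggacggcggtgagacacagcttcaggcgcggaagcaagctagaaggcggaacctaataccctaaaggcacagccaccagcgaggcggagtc
Slc29a4: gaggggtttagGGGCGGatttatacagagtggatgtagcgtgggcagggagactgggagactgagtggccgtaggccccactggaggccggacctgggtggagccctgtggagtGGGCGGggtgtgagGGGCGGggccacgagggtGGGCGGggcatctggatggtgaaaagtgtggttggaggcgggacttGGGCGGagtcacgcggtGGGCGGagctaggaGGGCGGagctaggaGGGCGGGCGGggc
The Slc29a4 promoter held 9 matches of GGGCGG and the upstream Adora1 promoter 3, clustered at the end next to the start, whereas the downstream Adora1 and the Slc29a2 promoters held 0. Promoters were found for 9 of the 10 genes, with 18 starts. GGGCGG was in 12 of these 18 and in 32.7% of all 32851 promoters of the same length. The E-box CACGTG, which is the same on both strands and is the letter pattern that the core clock activators bind, was in 1 of the 18, a start of Slc29a1, and in 6.02% of all promoters. A match is a description of the letters in this window only.

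Between the 2 KI genotypes no member was called. Of the 14 probes 0 passed in cortex and 0 in hypothalamus by limma, against a background of 0% of all probes in both tissues, where the smallest adjusted p of any probe was 0.201 and 0.172. At an unadjusted limma p under 0.05, 15.7% of all probes passed in cortex and 16.2% in hypothalamus. Of the members, 3 of 14 probes passed in each tissue. In cortex these were Adora2b, at -0.35 in Per3 5/5 minus Per3 4/4 (SE 0.16; limma adjusted p = 0.3), Slc29a4 at -0.31 (SE 0.15; adjusted p = 0.314) and Slc29a1 at 0.24 (SE 0.11; adjusted p = 0.306). In hypothalamus they were Adora2b at -0.41 (SE 0.16; limma adjusted p = 0.259), Nt5e at -0.33 (SE 0.12; adjusted p = 0.247) and the dim Slc29a3 probe A_52_P103940 at -1.24 (SE 0.34; adjusted p = 0.227).

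Against WT, some receptors and transporters were called higher in the KI mice and 1 enzyme lower, while Adora2a and Slc29a1 had no call. In Per3 4/4 cortex 5 probes of 4 genes were called, all higher (Adora1 by 2 probes, Adora2b, Slc29a2 and Slc29a4), where 22.5% of all probes were called. In Per3 5/5 cortex 2 probes were called, both higher (Adora1 and Slc29a2), where the background was 12.4%. In Per3 5/5 hypothalamus 7 probes of 5 genes were called, 6 higher (Adora1 by 3 probes, Slc29a2, Slc29a3 and Slc29a4) and Nt5e lower, where the background was 18.8%. In Per3 4/4 hypothalamus 4 probes were called, all higher (Adora1, Slc29a2, Slc29a3 and Slc29a4), where the background was 15.1%. The share of members called was 14.3% in Per3 5/5 cortex, close to the background, and 35.7%, 50% and 28.6% in the other 3 comparisons, on 14 probes. The median log2 difference over the 14 probes was 0.22 and 0.2 in Per3 5/5 and Per3 4/4 cortex and 0.32 and 0.34 in hypothalamus, and that over all probes tested was 0.06, 0.02, 0.03 and 0.02. The comparisons of the 2 KI genotypes with WT share the WT arrays. The study had itself picked out Adora1 and Slc29a3 from these samples, so their calls are not independent evidence. It reported Adora1 as higher in the KI genotypes than in WT, and Slc29a3 as lower in Per3 5/5 than in Per3 4/4 hypothalamus. In that last comparison neither Slc29a3 probe was called here, where limma called no probe of any gene. The study also called probes by a rank product analysis, which was not run here, so the calls come from unlike tests. A_51_P185465 was at 0.11 (limma adjusted p = 0.679) and the dim A_52_P103940 at -1.24 (adjusted p = 0.227).

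**Figure D1:**
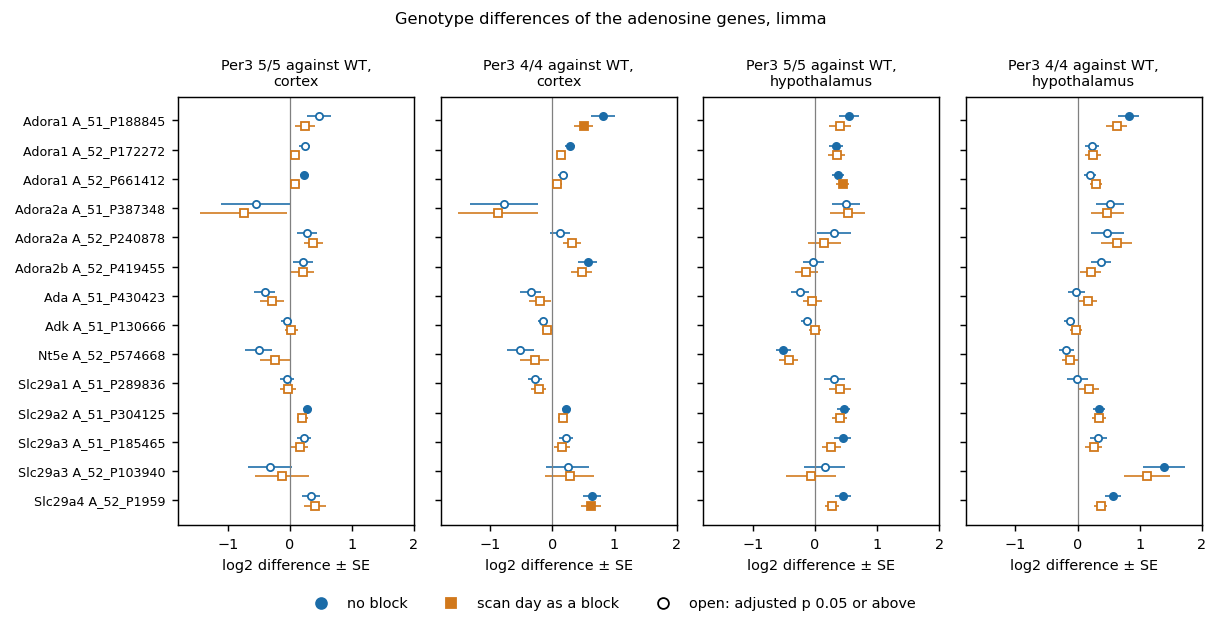
Log2 differences of each KI genotype from WT in cortex and hypothalamus for the 14 tested probes, 1 panel per comparison, without a block (circles) and with the scan day as a block (squares), with bars of ± SE from limma (8 mice per genotype) and filled symbols for adjusted p under 0.05. The 18 filled circles lie to the right of 0, except Nt5e in Per3 5/5 hypothalamus, and 3 of them keep a filled square.

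Adora1, the inhibitory adenosine receptor and the most abundant one in cortex, was read by 3 probes. All 3 were higher in Per3 5/5 than WT hypothalamus, by 0.34 to 0.55 on the log2 scale. On probe A_51_P188845 the cortex levels had a lowest, median and highest value of -1.45, -0.31 and 0.13 in Per3 5/5, -0.56, -0.17 and 0.09 in Per3 4/4, and -1.23, -1.13 and -0.75 in WT. All 8 Per3 4/4 arrays lay above all 8 WT arrays, by 0.82 on average (SE 0.19; 1.76-fold; limma adjusted p = 0.00589). The Per3 5/5 mice fell into separate ranges, with 5 arrays between -0.39 and 0.13, above every WT array, and replicates 6, 7 and 8 at -1.16, -1.34 and -1.45, of which 2 lay below every WT array. The Per3 5/5 difference from WT of 0.47 (SE 0.19; adjusted p = 0.105) was not called.

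The same mice were apart in hypothalamus on this probe. Replicates 6, 7 and 8 of Per3 5/5 were at -2.24, -2.06 and -2.11, within the WT range of -2.39 to -1.75 (median -2.15), and the other 5 were at -1.29 to -1.2, above every WT array. The Per3 4/4 levels ran from -1.94 to -1.13 with a median of -1.23, and 7 of 8 lay above all WT arrays. Adora1 on this probe was higher than in WT by 0.82 in Per3 4/4 (SE 0.17; 1.77-fold; limma adjusted p = 0.00676) and by 0.55 in Per3 5/5 (SE 0.17; 1.46-fold; adjusted p = 0.0246). The low Per3 5/5 mice were scanned on day 3, as was replicate 5, which was at -0.39 in cortex and -1.21 in hypothalamus. On that day the 1 Per3 4/4 mouse was at -0.17 and -1.13, and the 3 WT mice were at -1.23 to -1.17 in cortex and -2.39 to -1.94 in hypothalamus. With the scan day as a block, the difference was 0.5 in Per3 4/4 cortex (adjusted p = 0.0454), 0.63 in Per3 4/4 hypothalamus (adjusted p = 0.0667) and 0.4 in Per3 5/5 hypothalamus (adjusted p = 0.187), so that the cortex call remained.

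The other Adora1 probes gave smaller differences. Cortex levels on A_52_P172272 were 3.4, 3.8 and 4.02 (lowest, median, highest) in Per3 5/5, 3.57, 3.87 and 4.04 in Per3 4/4 and 3.38, 3.51 and 3.73 in WT, with 5 of 8 arrays of each KI genotype above every WT array. The Per3 4/4 difference of 0.28 (SE 0.09; 1.22-fold; limma adjusted p = 0.023) was called, and that of Per3 5/5, 0.24 (SE 0.09; adjusted p = 0.07), was not. In hypothalamus the levels were 2.67, 2.74 and 3.05 in Per3 5/5, 2.48, 2.67 and 2.89 in Per3 4/4 and 2.02, 2.42 and 2.99 in WT. The WT range overlapped most of both KI ranges, and Per3 5/5 was higher by 0.34 (SE 0.11; adjusted p = 0.0372). Per3 4/4, at 0.23 (adjusted p = 0.148), was not called there. With the scan day as a block the called differences were 0.14 in Per3 4/4 cortex (adjusted p = 0.234) and 0.35 in Per3 5/5 hypothalamus (adjusted p = 0.15).

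On Adora1 probe A_52_P661412 the order was Per3 5/5, Per3 4/4, WT in both tissues by the mean. In hypothalamus the levels were 2.45, 2.68 and 3.04 in Per3 5/5, 2.33, 2.52 and 2.65 in Per3 4/4 and 1.98, 2.35 and 2.66 in WT, and Per3 5/5 was higher than WT by 0.37 (SE 0.1; 1.29-fold; limma adjusted p = 0.0123). The 4 Per3 5/5 arrays of day 3, replicates 5 to 8, were at 2.76 to 3.04, above every Per3 4/4 and WT array, and the 4 of day 1 were at 2.45 to 2.6. Replicates 6, 7 and 8 thus lay at the high end on this probe and at the low end on A_51_P188845. This call remained with the scan day as a block, at 0.44 (adjusted p = 0.0377). On day 3, the only day shared with WT, the means were 2.88 in Per3 5/5 and 2.34 in WT. On day 1 they were 2.51 in Per3 5/5 and 2.5 in Per3 4/4. In cortex 7 of 8 Per3 5/5 arrays lay above every WT array, at 3.74 to 4.08 against 3.45 to 3.75, a difference of 0.24 (SE 0.08; adjusted p = 0.0475). With the scan day as a block it was 0.08 (adjusted p = 0.543), and in 13 of 16 fits that each left out 1 array it was no longer called. Neighbours in the order, Per3 5/5 and Per3 4/4, differed by 0.17 in hypothalamus (95% interval -0.03 to 0.37) and 0.06 in cortex (-0.1 to 0.22). Per3 4/4 was not called against WT on this probe, at 0.2 in hypothalamus (limma adjusted p = 0.152) and 0.17 in cortex (adjusted p = 0.108). The Adora1 call in Per3 4/4 hypothalamus thus rested on A_51_P188845 alone.

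Adora2b, a receptor of lower affinity that raises cyclic AMP, was called in Per3 4/4 cortex. Its cortex levels were -2.87, -2.04 and -1.58 (lowest, median, highest) in Per3 5/5, -2.11, -1.83 and -1.25 in Per3 4/4 and -2.51, -2.31 and -2.06 in WT. Of the Per3 4/4 arrays 7 lay above every WT array, and the difference was 0.57 (SE 0.16; 1.48-fold; limma adjusted p = 0.0141), or 0.47 (adjusted p = 0.0844) with the scan day as a block. The Per3 5/5 mice spread to both sides of WT, with 4 arrays above and 2 below every WT array. Here too replicates 6, 7 and 8 were the lowest of their group, at -2.25, -2.6 and -2.87. In hypothalamus the levels were -2.66 to -1.38 in Per3 5/5, -1.93 to -1.36 in Per3 4/4 and -2.29 to -1.42 in WT. The differences from WT there were -0.03 in Per3 5/5 (adjusted p = 0.927) and 0.38 in Per3 4/4 (adjusted p = 0.108), neither called.

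**Figure D2:**
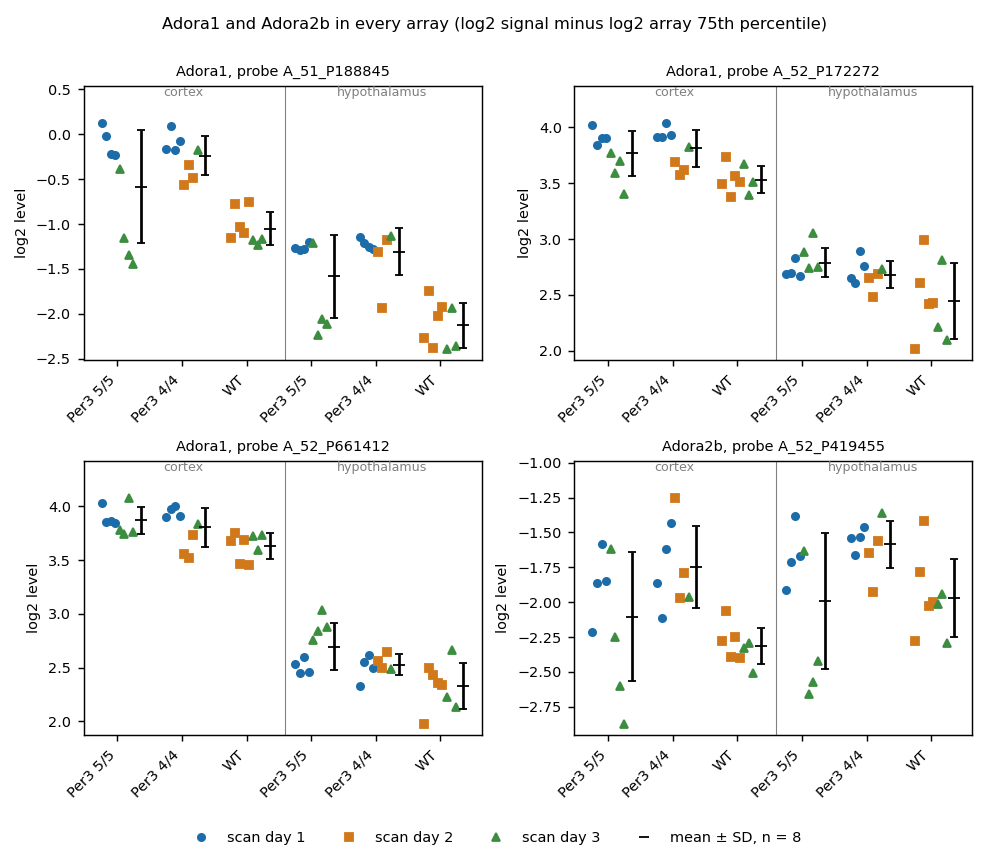
Levels of the 3 Adora1 probes and of Adora2b (log2 signal minus log2 of the array's 75th percentile) in each of 48 arrays, by genotype and tissue, with colour and shape for the scan day and bars for the mean ± SD of 8 arrays. On Adora1 probe A_51_P188845 and on Adora2b, 3 Per3 5/5 arrays of day 3 lie at the low end of their group, and all Per3 4/4 cortex arrays of A_51_P188845 lie above WT.

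Adora2a, the cyclic AMP-raising receptor concentrated in striatal neurons that project to the pallidum, had no genotype call on either probe. On A_51_P387348 the cortex levels ran from -3.38 to -0.2 in Per3 5/5 (median -2.67), from -3.03 to -0.5 in Per3 4/4 (median -2.83) and from -3.09 to 0.91 in WT (median -1.75). The groups overlapped almost throughout, and the differences from WT were -0.55 and -0.79 with an SE of 0.55 (limma adjusted p = 0.504 and 0.316). In hypothalamus the differences from WT were 0.5 and 0.52 (adjusted p = 0.113 and 0.11). Probe A_52_P240878 was at 0.26 to 1.36, 0.11 to 0.98 and -0.05 to 0.84 in cortex in the order Per3 5/5, Per3 4/4 and WT. Its cortex differences from WT were 0.28 and 0.12 (adjusted p = 0.231 and 0.618). Its hypothalamus differences from WT were 0.31 and 0.48 (adjusted p = 0.433 and 0.216). The 2 Adora2a probes did not move together over the arrays, at r = -0.02 in cortex and 0.03 in hypothalamus.

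The spread of the first Adora2a probe in cortex moved with the level of striatal marker transcripts. Across the 24 cortex arrays its level correlated with the summed level of 7 striatal markers (Drd1, Drd2, Gpr6, Penk, Ppp1r1b, Rgs9 and Tac1) with Pearson's r = 0.93 (permutation p = 1e-05, the smallest that 100000 permutations can give; 4e-05 adjusted over 4 relations) and Spearman's rho = 0.76 (permutation p = 5e-05). Without the 2 arrays farthest from the median of the marker sum, WT replicates 3 and 7, r was 0.89. Within scan days 1, 2 and 3 it was 0.96, 0.97 and 0.92. WT replicate 3 had the highest marker sum, 7.2, and the highest Adora2a level, 0.91. The marker sum in cortex was 3.85 to 5.86 in Per3 5/5, 3.95 to 5.94 in Per3 4/4 and 4.48 to 7.2 in WT. The second probe did not share the relation, at r = 0.09 in cortex (permutation p = 0.7). In hypothalamus, where the marker sum was 5.03 to 5.88, r was 0.04 and 0.09 for the 2 probes. In whole tissue blocks like these, fewer cells of a type and less RNA per cell cannot be told apart.

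**Figure D3:**
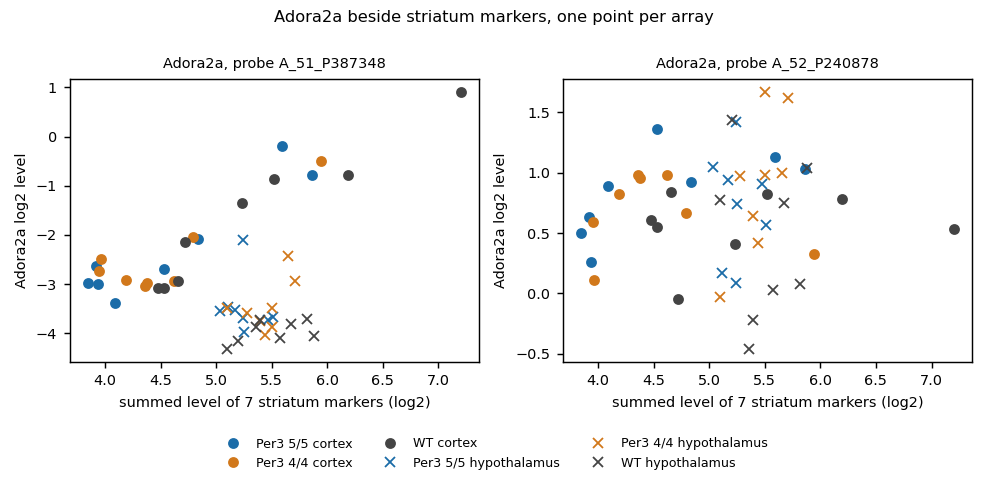
Level of Adora2a against the summed level of 7 striatal markers, both on the log2 scale, 1 point per array, with a panel for each probe, circles for cortex, crosses for hypothalamus and the genotype by colour. Probe A_51_P387348 rises with the marker sum in cortex (r = 0.93 over 24 arrays), and A_52_P240878 does not (r = 0.09).

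Among the enzymes, Nt5e was called lower in Per3 5/5 hypothalamus. Nt5e encodes the ecto-nucleotidase that makes adenosine from extracellular AMP. On A_52_P574668 the levels were -1.79, -1.57 and -1.11 (lowest, median, highest) in Per3 5/5, -1.49, -1.2 and -0.88 in Per3 4/4 and -1.37, -1.08 and -0.56 in WT, and 7 of 8 Per3 5/5 arrays lay below every WT array. The level fell by 0.51 (SE 0.12; 0.701-fold; limma adjusted p = 0.00662), and with the scan day as a block the difference was -0.43 (adjusted p = 0.103). In cortex the differences from WT were of like size, -0.5 in Per3 5/5 and -0.52 in Per3 4/4, with a larger SE of 0.22 (adjusted p = 0.119 and 0.088). The summed level of 6 markers of meninges and fibroblasts, cells that also carry Nt5e, was 3.15 to 4.67 in Per3 5/5 hypothalamus, 4.17 to 5.22 in Per3 4/4 and 3.99 to 5.14 in WT, with 2 of 6 called lower in Per3 5/5 than WT and 0 of 6 with the scan day as a block. The median difference of these markers in Per3 5/5 from WT was -0.45, and -0.63 with the scan day as a block. Their part in the Nt5e result was not tested.

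Ada and Adk, which remove adenosine, had no genotype call. Ada, the deaminase that turns adenosine into inosine, was at -3.4 to -2.09 in Per3 5/5 cortex, -3.22 to -2.1 in Per3 4/4 and -2.76 to -2.18 in WT. Its cortex differences from WT were -0.41 and -0.35 (SE 0.17; limma adjusted p = 0.107 and 0.134), with 4 of 8 arrays of each KI genotype below every WT array. Adk, the kinase that returns adenosine to AMP and is thought to set its resting level, was tight, at 3.73 to 4.19 in Per3 5/5, 3.49 to 4.03 in Per3 4/4 and 3.81 to 4.19 in WT cortex. Its 95% intervals for KI minus WT were -0.23 to 0.13 and -0.33 to 0.03 in cortex and -0.32 to 0.06 in hypothalamus for both genotypes.

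Of the transporters, Slc29a2 was called higher in both KI genotypes in both tissues. Slc29a2 is an equilibrative nucleoside transporter that also carries nucleobases. In hypothalamus its levels were -0.32, -0.12 and 0.14 (lowest, median, highest) in Per3 5/5, -0.45, -0.22 and 0.06 in Per3 4/4 and -1.06, -0.51 and -0.32 in WT. By unrounded values every Per3 5/5 array lay above every WT array, as did 6 of 8 Per3 4/4 arrays. The differences were 0.46 in Per3 5/5 (SE 0.1; 1.38-fold; limma adjusted p = 0.00449) and 0.34 in Per3 4/4 (SE 0.1; 1.27-fold; adjusted p = 0.0267). In cortex, at -0.98 to -0.43, -0.89 to -0.54 and -0.98 to -0.8, 7 of 8 arrays of each KI genotype lay above every WT array. There the differences were 0.28 (SE 0.07; adjusted p = 0.0174) and 0.22 (SE 0.07; adjusted p = 0.0299). With the scan day as a block the 4 differences were 0.2 and 0.16 in cortex and 0.4 and 0.34 in hypothalamus for Per3 5/5 and Per3 4/4, with adjusted p of 0.162, 0.186, 0.0711 and 0.111.

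Slc29a4, the plasma membrane monoamine transporter that also carries adenosine in acid surroundings, was called higher in 3 of the 4 comparisons. Its cortex levels were -2.96, -2.32 and -1.87 in Per3 5/5, -2.44, -2.2 and -1.45 in Per3 4/4 and -2.97, -2.75 and -2.44 in WT. By unrounded values all 8 Per3 4/4 arrays lay above all 8 WT arrays, at a difference of 0.64 (SE 0.15; 1.56-fold; limma adjusted p = 0.00458) that remained with the scan day as a block (0.62, adjusted p = 0.0253). The Per3 5/5 difference in cortex was 0.34 (SE 0.15; adjusted p = 0.119). In hypothalamus the levels were -1.48 to -0.8 in Per3 5/5, -1.48 to -0.54 in Per3 4/4 and -1.9 to -1.18 in WT. Per3 5/5 was higher by 0.45 (SE 0.13; adjusted p = 0.0199) and Per3 4/4 by 0.58 (SE 0.13; 1.49-fold; adjusted p = 0.0101), which with the scan day as a block were 0.28 (adjusted p = 0.171) and 0.37 (adjusted p = 0.0876). Replicates 6, 7 and 8 of Per3 5/5 were again the lowest of their group there, at -1.37, -1.48 and -1.36.

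Slc29a3, the nucleoside transporter of lysosomes and mitochondria, gave different calls on its probes. On A_51_P185465 the hypothalamus levels were -1.52, -1.37 and -1.11 in Per3 5/5, -1.76, -1.37 and -1.22 in Per3 4/4 and -2.74, -1.71 and -1.42 in WT. Per3 5/5 was higher than WT by 0.45 (SE 0.14; 1.36-fold; limma adjusted p = 0.0257; 0.26 and 0.32 for the difference and adjusted p with the scan day as a block), and Per3 4/4, at 0.33 (adjusted p = 0.0911), was not called. On A_52_P103940, Per3 4/4 hypothalamus was called, with a difference of 1.39 (SE 0.34; 2.62-fold; adjusted p = 0.0133; 1.12 and 0.117 with the scan day as a block). That probe was dim, well above background on 7 of 8 Per3 4/4, 5 of 8 Per3 5/5 and 6 of 8 WT hypothalamus arrays. Its Per3 4/4 levels were uneven, with 3 arrays at -3.69, -3.22 and -3.72 and the other 5 between -6.03 and -5.2, while Per3 5/5 was at -6.68 to -5.38 and WT at -6.62 to -5.92. In cortex neither probe was called.

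Slc29a1, the main equilibrative transporter of adenosine at the cell surface, had no genotype call. In cortex it was at -0.65 to 0.38 in Per3 5/5, -0.69 to -0.34 in Per3 4/4 and -0.41 to -0.04 in WT. Of the Per3 4/4 arrays 6 lay below every WT array, at a difference of -0.28 (SE 0.11; limma adjusted p = 0.0634). In hypothalamus replicates 6, 7 and 8 of Per3 5/5 were the highest arrays of all, at 1.75, 1.62 and 1.48, while the other 5 were at 0.44 to 0.96, Per3 4/4 at 0.53 to 0.97 and WT at 0.46 to 1.13. The differences from WT were 0.31 (adjusted p = 0.189) and -0.01 (adjusted p = 0.986).

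**Figure D4:**
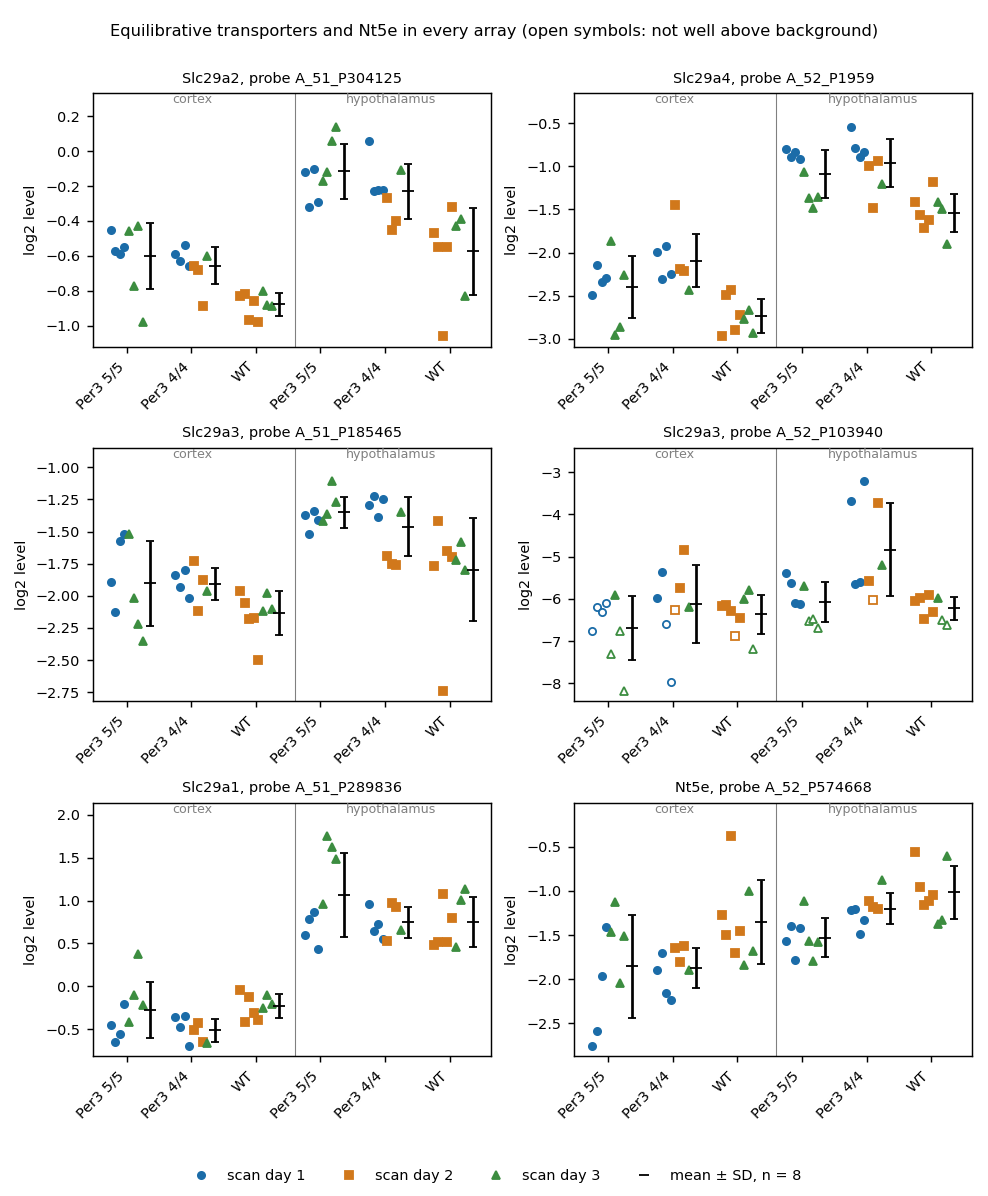
Levels of transporters of the Slc29 family and of Nt5e (log2 signal minus log2 of the array's 75th percentile) in each array, by genotype and tissue, with the scan day by colour and shape, open symbols for signals not well above background and bars for the mean ± SD of 8 arrays. Slc29a2 in Per3 5/5 hypothalamus and Slc29a4 in Per3 4/4 cortex lie wholly above WT, and 7 of 8 Nt5e arrays of Per3 5/5 hypothalamus lie below it.

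Markers of several cell types and tissues were also called against WT in hypothalamus, and none between the KI genotypes. Over 13 marker lists with 77 genes, 24 markers were called in Per3 5/5 and 12 in Per3 4/4, where 18.8% and 15.1% of all probes were. The share of markers called in Per3 4/4 was thus close to that of all probes. With the scan day as a block 6 and 1 were called, where 2.09% and 0.745% of all probes were. All 6 oligodendrocyte markers were higher in Per3 4/4 than WT and 3 of 6 in Per3 5/5, with sums of 7.63 to 7.98 in Per3 5/5, 7.75 to 8.26 in Per3 4/4 and 7.33 to 7.9 in WT. Under the scan-day block 1 of 6 and 0 of 6 were called. Their median difference from WT was then 0.5 in Per3 4/4 and 0.31 in Per3 5/5, against 0.54 and 0.38 without the block. In Per3 5/5, 2 of 6 cortical and 2 of 5 neuronal markers were higher, and 2 of 6 microglial, 2 of 6 choroid plexus and 2 of 4 blood markers were lower. The astrocyte markers went both ways, 2 of 6 higher and 1 lower, with a median difference of 0.06 and sums of 6.26 to 6.8 in Per3 5/5 and 6.33 to 6.74 in WT. Their part in the differences of the transporters and receptors was not tested.

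The tissues differed in the same direction in all 3 genotypes for most members. Differences were taken within each mouse, hypothalamus minus cortex, and tested by limma with 8 mice per genotype. In Per3 5/5, 9 of 14 probes were called (5 higher and 4 lower in hypothalamus; background 58.5%), in Per3 4/4 10 (7 and 3; background 59%) and in WT 10 (6 and 4; background 59.5%), shares not far above those of all probes. Hypothalamus samples lay at positions 1 and 3 of each slide and cortex samples at positions 2 and 4, so tissue and array position cannot be told apart. Of the 29 tissue calls, 28 remained with the scan day as a block, all but that of Adora2a probe A_51_P387348 in Per3 5/5 (-1.12, adjusted p = 0.0707).

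Adora1 was higher in cortex, and Ada, Slc29a1 and Slc29a4 were higher in hypothalamus, in every one of the 24 mice. For Adora1 probe A_52_P661412 the differences within mice had a lowest, median and highest value of -1.49, -1.15 and -0.88 in Per3 5/5, -1.57, -1.37 and -1.01 in Per3 4/4 and -1.7, -1.29 and -0.93 in WT. Over the 3 Adora1 probes and 3 genotypes the mean difference ran from -1.31 to -0.98. Ada differed by 1.33, 1.5 and 1.17 in the order Per3 5/5, Per3 4/4 and WT (SE 0.08; limma adjusted p = 4.48e-13, 4.92e-14 and 4.97e-12). Slc29a1 differed by 1.34, 1.26 and 0.98 (SE 0.1), with no mouse under 0.52, and Slc29a4 by 1.31, 1.13 and 1.2 (SE 0.12), with no mouse under 0.45.

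The remaining transporters differed less. Slc29a2 was higher in hypothalamus by 0.48, 0.43 and 0.3 (SE 0.08), in 23 of 24 mice. Slc29a3 probe A_51_P185465 was higher by 0.55, 0.45 and 0.34 (SE 0.13), also in 23 of 24 mice, while A_52_P103940 was called in Per3 4/4 alone (1.29, SE 0.37; limma adjusted p = 0.00391). Adora2a probe A_51_P387348 was lower in hypothalamus by the mean, at -1.25, -1 and -2.3 (SE 0.45), and was called in Per3 5/5 (adjusted p = 0.0198) and WT (adjusted p = 9.62e-05) but not in Per3 4/4 (adjusted p = 0.0595), and its cortex level is the one that moved with the striatal markers. Its other probe was not called. Adora2b was called in WT alone, at 0.35 (adjusted p = 0.0041), and Nt5e in Per3 4/4 alone, at 0.67 (adjusted p = 0.00155). Adk differed by -0.12, -0.02 and -0.04 (SE 0.08) and was not called.

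**Figure D5:**
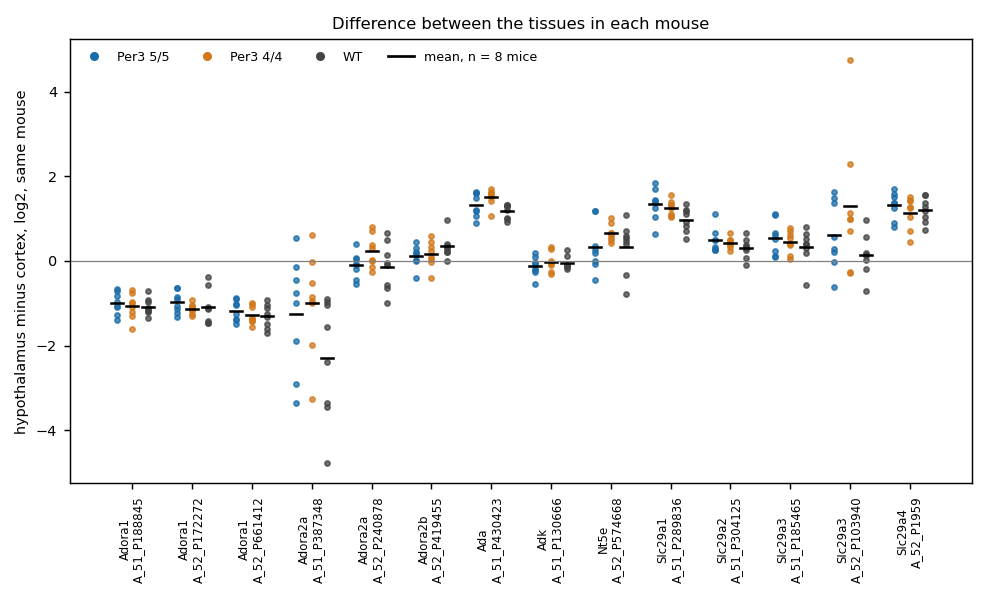
Hypothalamus minus cortex in each of 24 mice (log2 difference) for the 14 tested probes, by genotype, with bars for the mean of 8 mice. Adora1 lies below 0 in every mouse, and Ada, Slc29a1 and Slc29a4 lie above 0 in every mouse.

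No member's genotype difference was shown to depend on the tissue. The test of the difference between the tissues' effects called 0 of 14 probes for Per3 5/5 against Per3 4/4 (background 0%), 0 for Per3 5/5 against WT (background 0.00961%) and 0 for Per3 4/4 against WT (background 0.0032%). At an unadjusted limma p under 0.05, 3.83%, 6.22% and 5% of all probes passed in that order. Of the 14 member probes, 0, 1 and 2 did. These were Slc29a1 in Per3 5/5 (0.36, SE 0.14; limma adjusted p = 0.791), and Ada (0.33, SE 0.11) and Slc29a3 probe A_52_P103940 (1.15, SE 0.52) in Per3 4/4 (adjusted p = 0.925 for both). For Adora1 probe A_51_P188845 the effect differed between tissues by 0.08 in Per3 5/5 and 0.01 in Per3 4/4 (SE 0.13).

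Some members moved together over the 24 arrays of a tissue, which share their genotypes and scan days. In hypothalamus Adora1 probe A_51_P188845 and Slc29a4 had r = 0.87, and Slc29a2 and Slc29a3 probe A_51_P185465 had r = 0.85. In cortex Adora1 probe A_52_P172272 and Slc29a2 had r = 0.82. Between Adora1 probes, A_51_P188845 and A_52_P661412 had r = 0.43 in cortex and 0.2 in hypothalamus. Among all named genes, those most like the brightest Adora1 probe of the tissue were Nfasc (r = 0.894), Sema6b (0.877) and Klf7 (0.864) for A_52_P661412 in cortex and Desi1 (0.89), Ier5l (0.862) and Nkain1 (0.857) for A_52_P172272 in hypothalamus. Those most like Adora2a probe A_52_P240878 were Antxrl (0.913), Hspb9 (0.91) and Rnf151 (0.875) in cortex and Vash1 (0.962), Gpr152 (0.96) and Chst4 (0.958) in hypothalamus, none of them a striatal marker of the list. Those most like Slc29a3 probe A_51_P185465 were Capg (0.848), Slc26a6 (0.847) and Arhgap45 (0.842) in cortex and Aqp4 (0.952), Klhdc7a (0.919) and Ide (0.915) in hypothalamus. Aqp4 encodes the astrocyte water channel and is one of the astrocyte markers used here.

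The wider adenosine pathway was read by 1 probe for each of 57 genes tested, of 64 listed and 61 on the array. Between the KI genotypes 0 were called in either tissue. Against WT, 4 were higher and 1 lower in Per3 5/5 cortex, 8 and 1 in Per3 4/4 cortex, 8 and 2 in Per3 5/5 hypothalamus and 6 and 1 in Per3 4/4 hypothalamus. These were 8.77%, 15.8%, 17.5% and 12.3% of the 57 genes, each below the share of all probes called in the same comparison (12.4%, 22.5%, 18.8% and 15.1%). Fitted with the scan day as a block, 0, 3, 2 and 1 were called in that order.

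Ak1 and Adcy2 were the pathway genes called in both KI genotypes and both tissues. Ak1, an adenylate kinase that interconverts ATP, ADP and AMP, was higher by 0.39 and 0.33 in cortex and 0.55 and 0.46 in hypothalamus in the order Per3 5/5 and Per3 4/4 (SE 0.08 and 0.09; limma adjusted p = 0.00512, 0.00602, 0.0013 and 0.00597). Its hypothalamus calls remained with the scan day as a block, at 0.47 and 0.45, and its cortex differences were 0.24 and 0.23 (adjusted p = 0.0965 and 0.0525). Adcy2, an adenylyl cyclase, was higher by 0.53 and 0.61 in cortex and 0.5 and 0.46 in hypothalamus (SE 0.11). Adcy2 remained called with that block in Per3 4/4 cortex, at 0.45, and not in the other 3 comparisons (adjusted p = 0.0779 to 0.102).

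Of the other enzymes, Ak4 was higher in cortex by 0.39 in Per3 5/5 and 0.47 in Per3 4/4, and Ahcy, which releases adenosine from S-adenosylhomocysteine, was higher in Per3 4/4 by 0.59 in cortex and 0.61 in hypothalamus. Ak4 (0.34) and Ahcy (0.44) remained called with the scan day as a block in Per3 4/4 cortex, and the other Ak4 and Ahcy calls did not. None of the calls that follow remained with the scan day as a block. The adenylate kinase Ak5 was lower in Per3 4/4 hypothalamus (-0.25). Among adenylyl cyclases, Adcy3 (0.62) was higher in Per3 4/4 cortex, Adcy6 in Per3 5/5 (0.42) and Per3 4/4 (0.34) cortex, Adcy5 in Per3 5/5 (0.51) and Per3 4/4 (0.47) hypothalamus, and Adcy9 (0.45) in Per3 5/5 hypothalamus.

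Of genes that act after adenylyl cyclase, the phosphodiesterases Pde1b (0.41 and 0.38 in Per3 5/5 and Per3 4/4) and Pde4d (0.76 in Per3 5/5) were higher in hypothalamus, as was Ppp1r1b, a phosphatase inhibitor regulated by cyclic AMP (0.8 and 0.95). Ppp1r1b is also one of the striatal markers, of which 2 of 7 were called higher in each KI genotype, with median differences of 0.12 and 0.14. Among G proteins, Gnai2 (0.3) and Gnas (0.55) were higher and Gnai1 (-0.3) was lower in Per3 4/4 cortex, and Gnao1 (0.48) was higher in Per3 5/5 hypothalamus. P2ry12, a microglial receptor for ADP, was lower in Per3 5/5, with log2 differences of -0.77 in cortex and -0.82 in hypothalamus, and so was the purine salvage gene Hprt in hypothalamus (-0.49). The concentrative nucleoside transporter Slc28a3 was called in Per3 5/5 hypothalamus only with the scan day as a block (-0.75, adjusted p = 0.0396; -0.47 and 0.113 without it). The remaining adenosine receptor, Adora3, had no genotype call, with differences from WT of -0.01 to 0.15.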

How the data were processed

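RNA from frontal cortex and hypothalamus of 24 sleep-deprived mice was labelled with 1 dye and hybridised to Agilent whole-mouse-genome arrays with 4 arrays per slide. The authors extracted the spot intensities with Agilent Feature Extraction (version 10.7.1.1, per the file headers), which subtracts a background estimate, and deposited 1 scanner file per array. The gProcessedSignal intensity was used here. The authors also deposited log2 values per probe for the series, of which 99.97% lay within 0.05 of the values computed here once each probe was centred on its median within a tissue, so their scale, centring and direction are known (array medians -0.1 to 0.09). In cortex 29.1% of them were blank. These values served as an alternative.

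For each of the 43379 spots, control spots and outlier flags were left out, spots of a probe were averaged, and the log2 of the array's 75th percentile was subtracted from the log2 intensity. That percentile was 307 to 1884 intensity units, and the number of arrays, not a count of molecules, limits the precision. A probe was tested if 6 or more of the 8 arrays of any group had it well above background: 29714 in cortex, 30733 in hypothalamus and 31226 between tissues. Tests used limma 3.58.1 in R 4.3.3 on 8 mice per genotype, with each tissue fitted apart and, between tissues, on the differences within mice, and with Benjamini-Hochberg adjustment over all probes. Groups came from the labels. Nothing said whether the mice shared litters.

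The members, the pathway lists and the markers were chosen with earlier results of these data known. All member probes are named. Pathway genes were named where called, and the 3 genes most like Adora1, Adora2a and Slc29a3 by correlation over the arrays of a tissue. Alternatives were normexp background correction, median centring, quantile normalization, other filters on dim probes, the deposited table, scan day and slide as blocks, single scan days, the replicate number as a block and the t-test of the methods. The study also called probes by a rank product analysis, which was not among the alternatives here. It listed transcripts that differed between the KI genotypes. Leaving out each array or mouse in turn was added after seeing the data. From the pathway lists and the marker lists of cortex and striatum 1 gene each is not reported here. The code was tested on simulated data. Probe positions were not used here, since the genome build of the array's annotation differs from that of the promoters. Proteins and probe sequences were not used here.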

Additional observations from a re-analysis of the deposited data

Results flagged for a closer look

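In 6 of 90 sets of 8 arrays, 1 array lay farther from the other arrays of its group than Dixon's test at the 95% level allows, and chance gives about 1 in 20. Adora1 probe A_51_P188845 was at -1.94 in Per3 4/4 hypothalamus replicate 6, while the next lowest array of the group was at -1.31. The array of replicate 6 had the lowest 75th percentile of all, at 307 intensity units. Adora2a probe A_51_P387348 was at -0.5 in Per3 4/4 cortex replicate 2 (next highest -2.05) and at -2.1 in Per3 5/5 hypothalamus replicate 3 (next highest -3.46). Slc29a2 was at -0.89 in Per3 4/4 cortex replicate 7 (next lowest -0.68). Slc29a3 probe A_51_P185465 was at -2.5 in WT cortex replicate 5 (next lowest -2.18) and at -2.74 in WT hypothalamus replicate 3 (next lowest -1.8). The Slc29a3 call in Per3 5/5 hypothalamus remained in each of the fits that left out 1 array, and so did the Adora1 calls of probe A_51_P188845 in Per3 4/4.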

How the results depend on the processing

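No member called reversed its direction under any alternative that gave a value. Counts of called members moved by over 1.5 times as follows. In Per3 5/5 against WT cortex (2 probes) the count was 5 with normexp, 1 with median centring, 1 with no filter on dim probes, 1 with the slide as a random block, and 0 with the scan day as a block, with the slide as a fixed block and on day 3 alone. In Per3 4/4 against WT cortex (5) it was 8 with normexp and 8 by the methods' t-test with Benjamini-Hochberg adjustment, 2 with the scan day as a block, and 0 with the slide as a fixed block and on day 2 alone. In Per3 5/5 against WT hypothalamus (7) it was 2 with normexp, 4 by the methods' t-test, 1 with the scan day as a block, and 0 with the slide as a fixed block and on day 3 alone. In Per3 4/4 against WT hypothalamus (4) it was 0 with the scan day as a block, with the slide as a fixed block and on day 2 alone. Between tissues in Per3 4/4 (10) it was 6 on day 2 alone. Of the 18 genotype calls, 3 remained with the scan day as a block, 10 with normexp, 15 with median centring, 17 with quantile normalization and 18 with the deposited table. Normexp also moved the share of all probes called, to 31.4% (Per3 5/5) and 54.7% (Per3 4/4) in cortex but 6.25% and 6.09% in hypothalamus, and the methods' t-test gave 29.8% in Per3 4/4 cortex but 13.2% in Per3 5/5 hypothalamus. The scan-day block left 0.986% (Per3 5/5) and 7.72% (Per3 4/4) of cortex probes called and 2.09% and 0.745% of hypothalamus probes. The fixed slide block left 0%, but KI and WT mice shared few slides, so that fit could say little about their differences. The cause of these changes was not tested.

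Leaving out 1 array at a time gave 1 to 4, 3 to 6, 5 to 7 and 3 to 5 called members in the same order, 0 to 0 between the KI genotypes, and 8 to 10, 10 to 11 and 9 to 11 between tissues (Per3 5/5, Per3 4/4, WT). Adora1 probe A_51_P188845 was not called in Per3 5/5 hypothalamus without Per3 5/5 replicate 3, Adora1 probe A_52_P172272 was not called in Per3 4/4 cortex without Per3 4/4 replicate 3 and in Per3 5/5 hypothalamus in 8 of 16 fits, and Slc29a2 was not called in Per3 4/4 cortex in 4 of 16 fits and in Per3 4/4 hypothalamus without Per3 4/4 replicate 1. Between tissues, Adora2a probe A_51_P387348 was not called in Per3 5/5 without mouse 4 or mouse 7 (range -1.5 to -0.95), and Slc29a3 probe A_51_P185465 was not called in WT without mouse 2, 4 or 5. With the replicate number as a block, 1 member was called in Per3 5/5 against WT cortex in place of 2, and the other 17 genotype calls remained. The numbers were not taken to pair mice: 21 of 48 same-numbered pairs had deviations correlated above 0.1 (range -0.42 to 0.52), and 11 of 48 correlated best with their own number. Replicates 1 to 4 of both KI genotypes did share slides 1 to 4, number by number, and between these genotypes 5 of 8 pairs in cortex and 4 of 8 in hypothalamus were above 0.1.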
